A study of Arabidopsis thaliana with 6 samples.

Results

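The 43 genes described here are the nuclear genes for the subunits of the 2 photosystems and their light-harvesting antennae in *Arabidopsis thaliana*, 43 of the 33602 genes in the count table. They were taken by locus, whatever their level: 6 *LHCA* genes for the antenna of photosystem I (PSI), 14 *LHCB* genes for the antenna of photosystem II (PSII), 12 *PSA* genes for PSI subunits and 11 *PSB* genes for PSII subunits. The study compared *prp40c-1* mutants, which carry a T-DNA insertion in *PRP40C*, with wild-type plants, both in the Col-0 background, with 3 RNA-seq libraries per genotype. *PRP40C* encodes a plant member of the PRP40 family of splicing factors. Whole seedlings, 2 weeks old by the sample labels and taken between days 10 and 14, had grown untreated at 22 °C with the white light always on. The mutant group is 1 insertion allele, and the study's methods describe the 3 libraries of each genotype as biological replicates, without saying how many plants each held. In whole seedlings, more RNA per green cell and more green cells cannot be told apart.

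In oxygenic photosynthesis PSII takes electrons from water, and PSI passes them to ferredoxin. Each photosystem has core subunits that hold the pigments of the reaction centre, which are made in the chloroplast, and outer subunits that are made from nuclear genes and imported. The light-harvesting proteins bind chlorophyll a and b and carotenoids and pass excitation energy to the reaction centres. Nuclear *LHC* genes are classical targets of light, of the circadian clock and of signals from the chloroplast, and are among the most strongly expressed genes of green tissue.

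Of the 43 genes, 11 were higher and 1 was lower in *prp40c-1* at an adjusted p below 0.05 by edgeR's quasi-likelihood test. This was 25.6% and 2.33% of the members, where 7.05% of the 22182 genes tested were higher and 4.15% lower. The *LHCB2* genes, which encode a part of the main light-harvesting trimer of PSII, rose most, by 1.33 to 1.54-fold. The fall was in *PSBS*, the protein that senses the acidity of the thylakoid lumen and switches the PSII antenna to heat dissipation. The changes were small: *LHCB2.3* alone was also called at an absolute log2 fold change above 0.58, where 3.67% of the tested genes were called, 2.81% as higher and 0.852% as lower. All 43 genes passed the filter on low counts. Their median log2 fold change was 0.10, against -0.00 over all genes tested, with 36 positive and 7 negative values. The 3 libraries of each genotype did not overlap for 15 members that were higher and 1 that was lower in *prp40c-1*, or 34.9% and 2.33% of the members. Among the genes tested, 29.0% did not overlap, 15.5% as higher and 13.5% as lower.

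The count of 12 genes depended on single libraries. It was 6 without *prp40c-1* replicate 2, 6 without *prp40c-1* replicate 3 and 19 without wild-type replicate 3, and *LHCB2.3* was not called without *prp40c-1* replicate 3. *LHCB2.1*, *LHCB2.2*, *LHCB2.3*, *PSAD2* and *PSBS* had an adjusted p below 0.05 in every alternative run, including each of the 6 fits with a library left out. The other 7 genes lost it in at least 1 of these 6 fits.

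**Figure D1:**
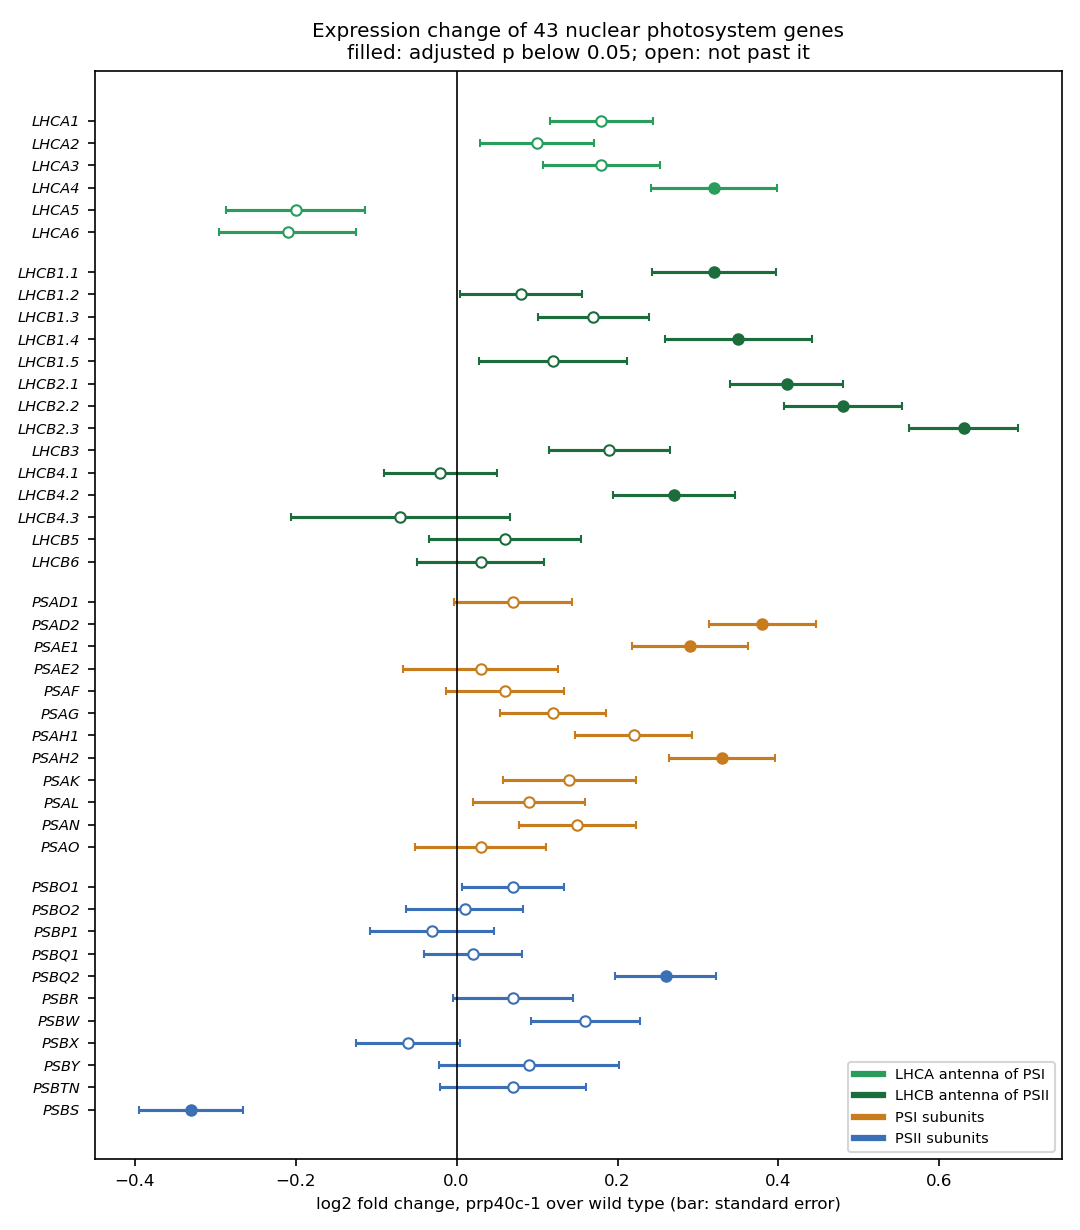
Log2 fold change of each of the 43 genes, *prp40c-1* over wild type, on the x axis, with the standard error as a bar and the genes grouped by class down the page; filled points have an adjusted p below 0.05. *LHCB2.3* lies farthest to the right at 0.63 and *PSBS* farthest to the left at -0.33, and all 12 PSI genes lie right of 0.

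The libraries held between 34200225 and 40919516 counts, and TMM scaling factors were 0.987 to 1.01. Between replicates, counts varied beyond sampling noise (chi-square over its degrees of freedom 6.82 to 18.1 for pairs of libraries). *PRP40C* had 11.8, 14.0 and 12.7 CPM (counts scaled to a common library size) in *prp40c-1*, against 24.6, 28.1 and 22.6 CPM in wild type, with no overlap (log2 fold change -0.97, adjusted p = 2.1e-05). These counts cover the whole gene and do not measure intact mRNA. By RT-PCR across the insertion, the study reported that full-length mRNA was strongly reduced in its mutant alleles. None of 10 root marker genes, listed with earlier results of these data known, had an adjusted p below 0.05. Their summed level was 2338 to 2599 CPM in *prp40c-1* and 2219 to 2349 CPM in wild type, most of it from *PYK10* (2349 CPM on average in *prp40c-1* and 2209 CPM in wild type, log2 fold change 0.09). Over the 10 genes the median log2 fold change was -0.17, with 6 values below 0, and *TIP2.3* was lower in every mutant library (-0.45, adjusted p = 0.0953). The part of tissue proportions in the results was not tested. Of 6 senescence genes tested, 1 had an adjusted p below 0.05 and 5 did not. The gene that passed was *SEN1*, induced by darkness and sugar shortage, which was higher in *prp40c-1* (106, 113 and 157 CPM, against 39.3, 30.2 and 53.4 CPM in wild type). Over the 6 genes the median log2 fold change was 0.03, with 3 positive and 3 negative values. *SAG12*, the marker of leaf senescence, had 0 counts in all 6 libraries.

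The promoters of the *LHCB2* genes, which hold the largest rises, are shown as the 250 bases before the gene start in RefSeq's annotation of TAIR10.1. They run 5′ to 3′ on the strand of the gene, in lower case, with motif matches in capitals.
*LHCB2.1* (chr2:1824481-1824730, minus strand): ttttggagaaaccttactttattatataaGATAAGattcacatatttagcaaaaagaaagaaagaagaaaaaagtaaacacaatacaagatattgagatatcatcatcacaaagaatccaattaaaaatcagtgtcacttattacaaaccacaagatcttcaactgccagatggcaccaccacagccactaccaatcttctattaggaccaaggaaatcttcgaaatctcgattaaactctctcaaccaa
*LHCB2.2* (chr2:1800473-1800722, minus strand): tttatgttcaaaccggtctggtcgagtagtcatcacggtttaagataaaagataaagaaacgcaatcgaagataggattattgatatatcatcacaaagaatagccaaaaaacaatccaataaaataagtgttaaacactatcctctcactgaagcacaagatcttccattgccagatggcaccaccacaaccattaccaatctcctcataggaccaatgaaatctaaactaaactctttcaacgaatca
*LHCB2.3* (chr3:10255656-10255905, plus strand): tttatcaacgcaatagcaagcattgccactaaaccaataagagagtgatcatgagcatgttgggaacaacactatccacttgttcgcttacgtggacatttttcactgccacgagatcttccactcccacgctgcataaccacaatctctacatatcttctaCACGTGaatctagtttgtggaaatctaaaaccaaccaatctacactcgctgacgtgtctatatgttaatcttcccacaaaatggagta

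The capitals in the *LHCB2.3* promoter mark CACGTG, the G-box, a core element bound by bZIP and bHLH factors in many light-regulated promoters, at 88 bases before the start. Those in the *LHCB2.1* promoter mark GATAAG, the core of the I-box, at 221 bases. Windows of the same length were searched on both strands for 5 short elements in 32834 nuclear genes. The G-box occurred in 9 of the 43 member windows (20.9%) and in 5.83% of all windows. GATAAG occurred in 9 members (20.9%) and in 12.6% of all windows. AAAAATCT and AACAATCT, both described as binding sites of the clock protein CCA1 in *LHCB1* promoters, occurred in 5 members and in 1 member (11.6% and 2.33%), against 6.27% and 1.85% of all windows. The evening element AAATATCT occurred in 1 member and in 4.52% of all windows. These counts depend on where the gene is taken to start: with the starts in the deposited table, which often lie further downstream, the G-box was in 18 members (41.9%) and 6.77% of all windows, and GATAAG in 21 members (48.8%) and 13.1%.

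By class, the G-box was found before 1 of 6 *LHCA*, 3 of 14 *LHCB*, 2 of 12 PSI and 3 of 11 PSII genes. These counts use the RefSeq starts. *LHCA4*, *LHCB2.3*, *PSAH2* and *PSBQ2*, which changed, held at least 1. So did *LHCB4.1*, *LHCB6*, *PSAE2*, *PSBQ1* and *PSBTN*, which did not pass the threshold on the adjusted p. The promoters of *LHCB2.1* and *LHCB2.2* shared a run of 20 bases, tgccagatggcaccaccaca, which begins 86 and 80 bases before their starts. The longest run shared with *LHCB2.3* was 8 bases for *LHCB2.1* and 10 bases for *LHCB2.2*.

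*LHCB1*, *LHCB2* and *LHCB3* encode the trimers of LHCII, the main antenna of PSII, and kinases move LHCII between the photosystems by phosphorylating *LHCB1* and *LHCB2* proteins. *LHCB2.3* (AT3G27690, chr3:10255947-10257011) had 630, 659 and 712 CPM in *prp40c-1* libraries and 416, 429 and 451 CPM in wild type. Every mutant library was above every wild-type library, and the means were 667 ± 41.5 and 432 ± 17.7 CPM (SD, n = 3). The log2 fold change was 0.63 (standard error 0.0677, adjusted p = 1.8e-05).

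*LHCB2.2* (AT2G05070, chr2:1799234-1800392) had 1450, 1554 and 1762 CPM in *prp40c-1*, against 1146, 1138 and 1128 CPM in wild type. *LHCB2.1* (AT2G05100, chr2:1823240-1824425) had 1681, 1843 and 1992 CPM in *prp40c-1*, against 1409, 1347 and 1389 CPM in wild type. In both genes the wild-type libraries lay close together and below all mutant libraries. The log2 fold changes were 0.48 for *LHCB2.2* (standard error 0.0730, adjusted p = 4.2e-04) and 0.41 for *LHCB2.1* (standard error 0.0701, adjusted p = 0.00111). Reads of these 2 genes can be confused: 13.7% of the exonic windows of 100 bases of *LHCB2.2* and 10.7% of those of *LHCB2.1* occurred at another place in the genome, and the sources used here do not say how such reads were counted. No window of *LHCB2.3* did.

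The 5 *LHCB1* genes include the most strongly expressed member. *LHCB1.3* (AT1G29930) had 21321, 22720 and 25186 CPM in *prp40c-1*, against 20034, 20891 and 20754 CPM in wild type. Its libraries did not overlap, but the log2 fold change of 0.17 missed the threshold (standard error 0.0687, adjusted p = 0.142). *LHCB1.1* (AT1G29920) had 4748, 4895 and 5686 CPM in *prp40c-1*, against 3930, 3927 and 4409 CPM in wild type. *LHCB1.4* (AT2G34430) had 3534, 3657 and 4178 CPM in *prp40c-1*, against 2632, 2851 and 3431 CPM in wild type. Both genes rose with no overlap between genotypes, by 0.32 (standard error 0.0773, adjusted p = 0.0137) and 0.35 (standard error 0.0912, adjusted p = 0.0214) on the log2 scale.

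*LHCB1.5* (AT2G34420) and *LHCB1.2* (AT1G29910) overlapped between genotypes. *LHCB1.5* had 6159, 6242 and 6780 CPM in *prp40c-1*, against 5467, 5179 and 6944 CPM in wild type, and its log2 fold change was 0.12 (adjusted p = 0.445). *LHCB1.2* had 4763, 4873 and 5111 CPM in *prp40c-1*, against 4387, 4306 and 5214 CPM in wild type, and its log2 fold change was 0.08 (adjusted p = 0.543). In both, wild-type replicate 3 was the highest of the 6 libraries. Between 1.51% and 4.44% of the exonic windows of 100 bases of the *LHCB1* genes occurred elsewhere in the genome. *LHCB3* (AT5G54270), a single gene whose protein sits in trimers with the other LHCII proteins, had 2899 ± 60.3 CPM in *prp40c-1* and 2536 ± 282 CPM in wild type (SD, n = 3; adjusted p = 0.120).

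The minor antenna proteins CP29, CP26 and CP24, encoded by *LHCB4*, *LHCB5* (AT4G10340) and *LHCB6* (AT1G15820), link the trimers to the PSII core as monomers. *LHCB4.2* (AT3G08940) had 1418, 1464 and 1560 CPM in *prp40c-1*, against 1104, 1242 and 1347 CPM in wild type. It rose by 0.27 on the log2 scale (standard error 0.0758, adjusted p = 0.0334), and its libraries did not overlap. *LHCB4.1* (AT5G01530), the stronger copy, had 2190, 2234 and 2215 CPM in *prp40c-1*, against 2018, 2348 and 2381 CPM in wild type, with a log2 fold change of -0.02. *LHCB4.3* (AT2G40100), a copy known from plants under strong light, had 6.90, 6.62 and 6.58 CPM in *prp40c-1*, against 7.22, 6.41 and 7.53 CPM in wild type, the lowest levels of the 43 genes. *LHCB5* and *LHCB6* had log2 fold changes of 0.06 and 0.03, and both overlapped between genotypes.

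*LHCA1* (AT3G54890) to *LHCA4* (AT3G47470) encode the 4 proteins of the antenna belt of PSI. *LHCA4* had 4047, 4215 and 4488 CPM in *prp40c-1*, against 3339, 3071 and 3814 CPM in wild type. It was the member of the class with the highest level per length and the only one to pass the threshold, by 0.32 on the log2 scale (standard error 0.0783, adjusted p = 0.0156). *LHCA1*, the partner of *LHCA4* in a heterodimer, had 2990, 3013 and 3166 CPM in *prp40c-1*, against 2534, 2752 and 2783 CPM in wild type. Its libraries did not overlap, and its log2 fold change was 0.18 (standard error 0.0642, adjusted p = 0.0805). *LHCA2* (AT3G61470) and *LHCA3* (AT1G61520) had log2 fold changes of 0.10 and 0.18 with overlapping libraries.

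*LHCA5* (AT1G45474) and *LHCA6* (AT1G19150) encode scarce proteins that join PSI to the NDH complex of cyclic electron flow. *LHCA5* had 80.0, 70.6 and 70.3 CPM in *prp40c-1*, against 78.3, 78.7 and 96.7 CPM in wild type. *LHCA6* had 77.7, 63.4 and 62.0 CPM in *prp40c-1*, against 73.3, 80.0 and 81.9 CPM in wild type. Their log2 fold changes were -0.20 (adjusted p = 0.162) and -0.21 (adjusted p = 0.132), the only negative values of the class, and the libraries of both genes overlapped. *LHCA6* passed the threshold without *prp40c-1* replicate 1, with an adjusted p of 0.0166, which was the lowest over its alternatives.

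**Figure D2:**
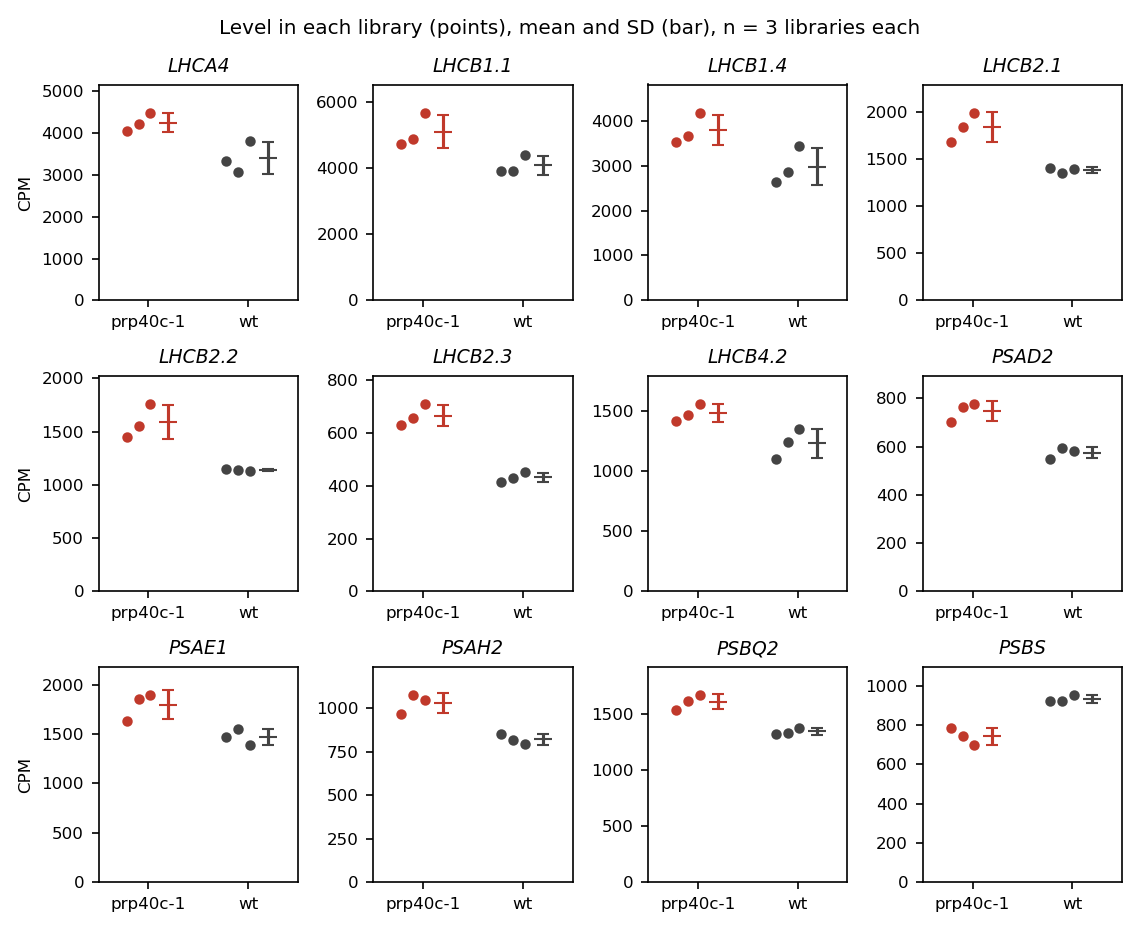
Level in CPM (y axis, starting at 0) of the 12 genes with an adjusted p below 0.05, in the 3 libraries of *prp40c-1* (red points) and of wild type (grey points), with the mean and SD beside them. The libraries do not overlap in any of the 12 genes, and *PSBS* is the gene with the lower level in *prp40c-1*.

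All 12 nuclear PSI genes had positive log2 fold changes, from 0.03 to 0.38, and 3 of them (25%) had an adjusted p below 0.05. Over all genes tested, 7.05% were higher at this threshold. PSAD, PSAE and the plastid-encoded PSAC form the stromal ridge where ferredoxin docks. *PSAD2* (AT1G03130) had 700, 764 and 778 CPM in *prp40c-1*, against 549, 594 and 582 CPM in wild type. *PSAE1* (AT4G28750) had 1631, 1859 and 1898 CPM in *prp40c-1*, against 1469, 1554 and 1393 CPM in wild type. Neither gene overlapped between genotypes, and the log2 fold changes were 0.38 (standard error 0.0667, adjusted p = 0.00150) and 0.29 (standard error 0.0726, adjusted p = 0.0183).

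Their other copies did not pass the threshold. *PSAD1* (AT4G02770) had 1400, 1456 and 1504 CPM in *prp40c-1*, against 1265, 1526 and 1353 CPM in wild type (log2 fold change 0.07, adjusted p = 0.594). *PSAE2* (AT2G20260) had 546, 557 and 603 CPM in *prp40c-1*, against 481, 666 and 527 CPM in wild type (log2 fold change 0.03, adjusted p = 0.902). In both, wild-type replicate 2 was the highest of the 6 libraries.

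PSAH, PSAL and PSAO lie on the side of PSI where LHCII binds during state transitions. *PSAH2* (AT1G52230) had 968, 1079 and 1048 CPM in *prp40c-1*, against 854, 817 and 793 CPM in wild type. *PSAH1* (AT3G16140) had 655, 750 and 772 CPM in *prp40c-1*, against 619, 650 and 596 CPM in wild type. Both copies were higher in every mutant library, and *PSAH2* passed the threshold (log2 fold change 0.33, standard error 0.0661, adjusted p = 0.00420), while *PSAH1* did not (0.22, standard error 0.0724, adjusted p = 0.0604). *PSAL* (AT4G12800) and *PSAO* (AT1G08380) had log2 fold changes of 0.09 and 0.03. *PSAG* (AT1G55670), on the opposite side of the complex and with the highest level per length among PSI genes, had 1853, 1967 and 2024 CPM in *prp40c-1*, against 1721, 1909 and 1765 CPM in wild type (0.12, adjusted p = 0.311). *PSAF* (AT1G31330), which binds plastocyanin, *PSAK* (AT1G30380) and *PSAN* (AT5G64040) had values of 0.06, 0.14 and 0.15.

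Of the 11 PSII genes, *PSBQ2* (AT4G05180) rose and *PSBS* fell, 9.09% of the class in each direction. Over all genes tested, 7.05% were higher and 4.15% lower at this threshold, so the class was near the background. *PSBS* (AT1G44575, chr1:16871696-16873383) had 784, 745 and 697 CPM in *prp40c-1*, against 923, 920 and 954 CPM in wild type. All mutant libraries lay below all wild-type libraries, with means of 742 ± 43.4 and 932 ± 19 CPM (SD, n = 3). The log2 fold change was -0.33 (standard error 0.0651, adjusted p = 0.00368).

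PSBO, PSBP and PSBQ shield the manganese cluster that splits water. *PSBQ2* had 1540, 1617 and 1673 CPM in *prp40c-1*, against 1325, 1332 and 1379 CPM in wild type, with no overlap (log2 fold change 0.26, standard error 0.0626, adjusted p = 0.0138). *PSBQ1* (AT4G21280) had 1063, 1115 and 1122 CPM in *prp40c-1*, against 1066, 1094 and 1094 CPM in wild type. The libraries of *PSBQ1* overlapped, and its log2 fold change was 0.02 (adjusted p = 0.886). *PSBO1* (AT5G66570) had 3423, 3537 and 3747 CPM in *prp40c-1*, against 3292, 3519 and 3373 CPM in wild type, and *PSBO2* (AT3G50820) had 869, 902 and 879 CPM, against 828, 974 and 821 CPM in wild type. Both *PSBO* genes overlapped between genotypes, as did *PSBP1* (AT1G06680), and their log2 fold changes were 0.07, 0.01 and -0.03.

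*PSBR* (AT1G79040), a subunit near the water-splitting side, had the highest level per length among PSII genes. It had 2180, 2158 and 2206 CPM in *prp40c-1*, against 2012, 1892 and 2325 CPM in wild type (log2 fold change 0.07, adjusted p = 0.612). Of the small subunits, *PSBW* (AT2G30570) was higher in every mutant library (0.16, adjusted p = 0.15). *PSBX* (AT2G06520), *PSBY* (AT1G67740) and *PSBTN* (AT3G21055) overlapped, at -0.06, 0.09 and 0.07.

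Summed over the 43 genes, the members took 10.0, 10.4 and 10.9% of the counts in *prp40c-1* libraries and 9.04, 9.32 and 9.86% in wild type. *LHCB1.3* alone averaged 23076 ± 1957 CPM of a sum of 104654 ± 5314 CPM in *prp40c-1*, and 20560 ± 460 CPM of 93901 ± 5247 CPM in wild type (SD, n = 3). The *LHCB* genes summed to 59186 ± 3752 CPM in *prp40c-1* and 52125 ± 3597 CPM in wild type (SD, n = 3). The *LHCA* genes summed to 12725 ± 592 CPM in *prp40c-1* and 11042 ± 715 CPM in wild type. Sums of the PSI subunits were 15905 ± 645 and 14421 ± 788 CPM, and those of the PSII subunits 16838 ± 419 and 16313 ± 606 CPM, in *prp40c-1* and in wild type.

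These sums were described without a test. Their log2 ratios were 0.20 for *LHCA*, 0.18 for *LHCB*, 0.14 for PSI and 0.05 for PSII. Leaving out *prp40c-1* replicate 3 gave 0.03 for PSII, and leaving out replicate 1 of wild type gave 0.02. The sums of PSI and of *LHCA* were higher in every mutant library, whereas those of *LHCB* and PSII overlapped. Within a library, the ratio of light-harvesting to PSII counts was 4.15, 4.21 and 4.44 in *prp40c-1*, against 3.84, 3.69 and 4.08 in wild type. The ratio of PSI to PSII was 0.923, 0.961 and 0.949 in *prp40c-1*, against 0.866, 0.900 and 0.885 in wild type. Neither ratio overlapped between genotypes, while the ratio of light-harvesting to PSI counts did (4.38 to 4.68 against 4.1 to 4.61). Such ratios were not computed for other groups of genes, so they have no background beside them. In both genotypes replicate 1 was lowest and replicate 3 highest over the members: the median log2 deviation from the genotype mean was -0.06, 0.00 and 0.05 in *prp40c-1* and -0.08, 0.00 and 0.06 in wild type.

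**Figure D3:**
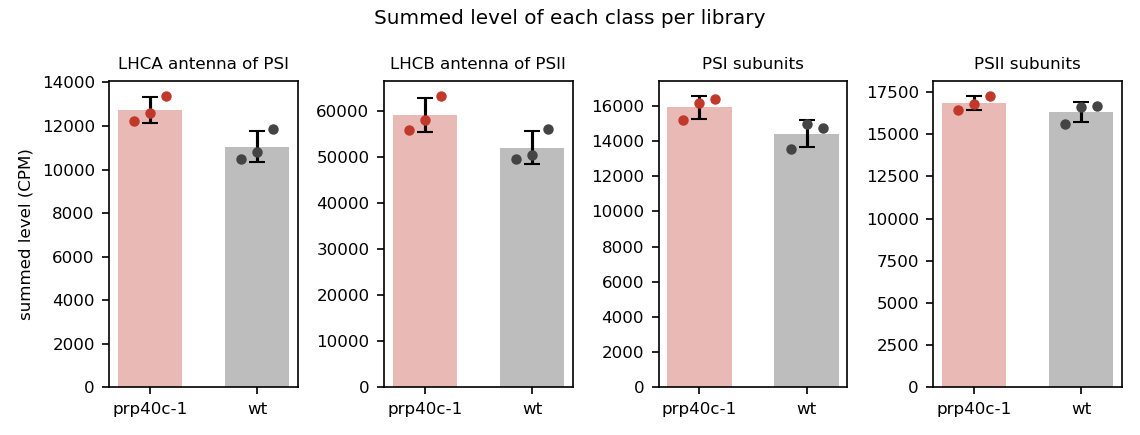
Summed CPM of each class (y axis, starting at 0) in *prp40c-1* (red) and wild type (grey), with a point per library, the mean as a bar and the SD as an error bar. The *LHCA* and PSI sums do not overlap between genotypes, while those of *LHCB* (59186 and 52125 CPM on average) and PSII (16838 and 16313 CPM) do.

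Because a share of 1 copy among the copies of its subunit does not depend on library scaling, the copies were also set against each other. Of 16 shares compared, 8 did not overlap between genotypes. Such shares were not computed for other gene families, so this count has no background beside it. Shares within a subunit depend on each other: *LHCB4.1* and *LHCB4.2*, both among the 8, differed by -4.68 and 4.71 percentage points. Each of these 8 had an exact two-sided permutation p of 0.1, the smallest that 3 against 3 libraries allow, and 0.200 after adjustment over the 16. In the PSBQ pair, *PSBQ2* supplied 59.2, 59.2 and 59.9% of the counts in *prp40c-1*, against 55.4, 54.9 and 55.8% in wild type. In the PSAD pair, *PSAD2* supplied 33.3, 34.4 and 34.1% in *prp40c-1*, against 30.2, 28 and 30.1% in wild type. In LHCB4, *LHCB4.2* supplied 39.2, 39.5 and 41.2% in *prp40c-1*, against 35.3, 34.5 and 36.1% in wild type. In these 3 subunits the copy numbered 2 took a larger share in every mutant library. The shares of *LHCB1.2*, *LHCB2.2*, *PSAE2*, *PSAH2* and *PSBO2* overlapped between genotypes.

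Within LHCB2, *LHCB2.3* took 16.3 ± 0.408% of the counts in *prp40c-1* and 14.6 ± 0.598% in wild type (SD, n = 3), and *LHCB2.1* took 44.9 ± 0.451% and 46.8 ± 0.597%. Within LHCB1, *LHCB1.1* took 11.8 ± 0.290% in *prp40c-1* and 10.7 ± 0.135% in wild type, and *LHCB1.4* took 8.75 ± 0.139% and 7.77 ± 0.606%. The PSAE, PSAH and PSBO shares overlapped, as did those of the remaining *LHCB1* and *LHCB2* copies and of *LHCB4.3*. The share of *PSAE1*, for example, was 75.9 ± 1.00% in *prp40c-1* and 72.6 ± 2.67% in wild type.

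**Figure D4:**
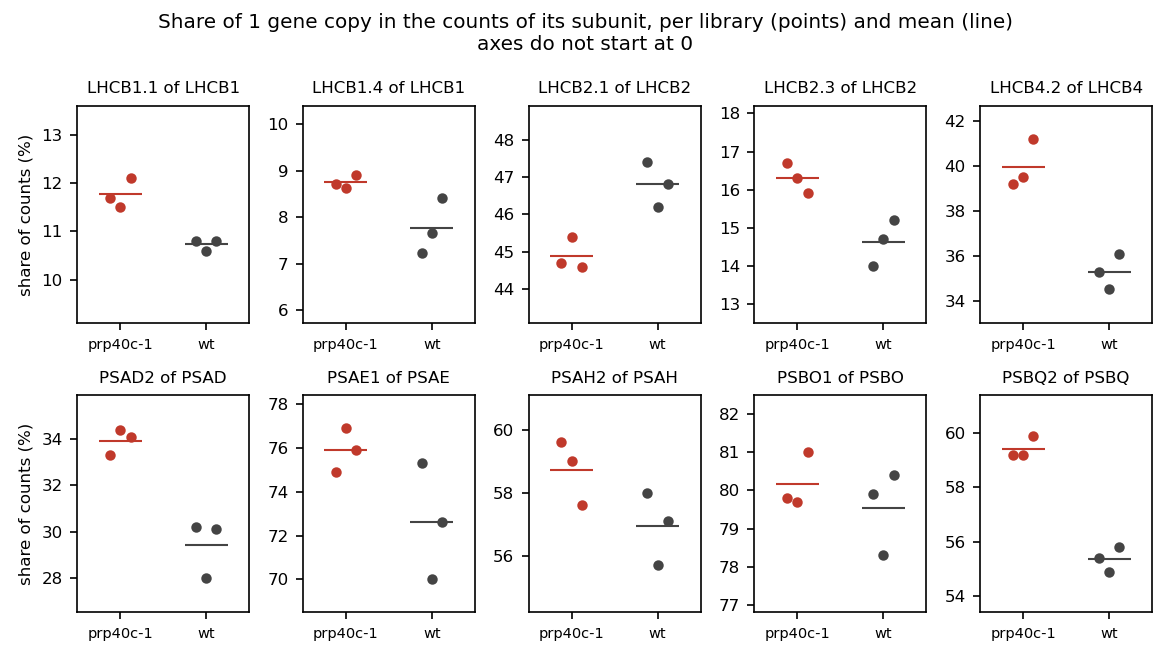
Share of a gene copy in the counts of its subunit (y axis, percent, not starting at 0) in the 3 libraries of *prp40c-1* (red) and wild type (grey), with the mean as a line. *PSBQ2*, *PSAD2* and *LHCB4.2* lie higher in all *prp40c-1* libraries, while *PSAE1*, *PSAH2* and *PSBO1* overlap.

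The members are strongly expressed: 40 of the 199 genes with a mean of at least 500 CPM were members. Among these 199 genes, 23 (11.6%) were higher and 43 (21.6%) lower in *prp40c-1* at an adjusted p below 0.05. The 40 members supplied 11 of the 23 and 1 of the 43. Of the other 159 genes at this level, 12 (7.55%) were higher and 42 (26.4%) lower.

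Other genes of photosynthesis are given beside the members, in lists chosen by function with earlier results of these data known. Over all genes tested, 7.05% were higher and 4.15% lower at an adjusted p below 0.05. Of 17 genes of the Calvin cycle, which fixes CO2 in the stroma, 0 were higher and 9 (52.9%) lower, with a median log2 fold change of -0.26. *CP12-2*, a small regulator of the cycle, had the largest change, with 145, 112 and 110 CPM in *prp40c-1*, against 156, 187 and 190 CPM in wild type (-0.54, adjusted p = 0.00265). The count of 9 fell to 1 without *prp40c-1* replicate 2 and to 1 without *prp40c-1* replicate 3. The Calvin cycle genes summed to 37979 to 39384 CPM in *prp40c-1* and 42489 to 43897 CPM in wild type, with no overlap.

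Of 14 genes of chlorophyll synthesis, 2 rose and 3 fell. *CAO*, the oxygenase that makes chlorophyll b, which the light-harvesting proteins need, had 239, 250 and 253 CPM in *prp40c-1*, against 191, 181 and 193 CPM in wild type (log2 fold change 0.39, adjusted p = 7.2e-04). *HEMA1*, for the first committed enzyme of the pathway, had 174, 182 and 165 CPM in *prp40c-1*, against 118, 132 and 143 CPM in wild type (0.41, adjusted p = 0.00231). The genes that fell were *DVR* (-0.39), *PORC* (-0.34) and *CHLI2* (-0.31). The 5 genes past the adjusted p became 3 without *prp40c-1* replicate 2 or replicate 3, 2 higher and 1 lower.

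Of 10 genes for regulation and assembly of the antenna, *STN7*, the kinase that phosphorylates LHCII, had 104, 113 and 123 CPM in *prp40c-1*, against 95.2, 93.4 and 96.8 CPM in wild type (0.25, adjusted p = 0.0318). *GUN1*, of plastid-to-nucleus signalling, was lower (-0.27, adjusted p = 0.0118), and the transcription factors *GLK1* and *GLK2*, known activators of *LHC* genes, had values of 0.03 and 0.05. Without *prp40c-1* replicate 2 or 3, no gene of this list passed the adjusted p. Without wild-type replicate 1 or 2, no gene of it passed as higher. The rise of *STN7* was thus lost in each of these 4 fits. Of 13 genes of electron transport and ATP synthase, *FD1*, a ferredoxin, was lower (-0.30, adjusted p = 0.0226). *FD1* lost the threshold on the adjusted p in 3 of the 6 fits with a library left out. Of 7 further genes of the LHC superfamily, *ELIP1*, induced by light stress, had 6.22, 6.46 and 3.91 CPM in *prp40c-1*, against 16.9, 15.2 and 7.72 CPM in wild type (-1.26, adjusted p = 0.00296), and *LIL3.1* was lower (-0.23, adjusted p = 0.0447). These 2 genes past the adjusted p became 1 without *prp40c-1* replicate 2 or 3 and without wild-type replicate 2 or 3.

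Of 8 plastid-encoded photosystem genes, whose products form the cores that the members join, 5 were lower and 0 higher in *prp40c-1*, with a median of -0.56, and 4 were called. *PSAA*, a reaction centre protein of PSI, had 13, 10.9 and 11.8 CPM in *prp40c-1*, against 37.7, 16.7 and 16.2 CPM in wild type (-0.98, adjusted p = 0.0148). *PSAB*, its partner, had 16.7, 16.2 and 19.9 CPM in *prp40c-1*, against 51.7, 23.7 and 25.6 CPM in wild type (-0.94, adjusted p = 0.0105). Wild-type replicate 1 stood above the other libraries in both. *PSBA* (-0.66, adjusted p = 0.0496) and *PSBD* (-0.61, adjusted p = 0.0328) were also called, and *PSBC* (-0.51, adjusted p = 0.0299) passed the adjusted p alone. The libraries of *PSBA* overlapped between genotypes (13.6 CPM in *prp40c-1* replicate 3, against 13.2 CPM in wild-type replicate 2). *PSBC* (bases 33720 to 35141) and *PSBD* (bases 32711 to 33772) overlap at their ends, so their values may not be fully separate. Wild-type replicate 3 was the highest library in both (64.8 and 94.0 CPM).

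These libraries were made from poly(A) RNA, which holds few plastid transcripts: the plastid genome took 0.634 to 0.694% of the counts in *prp40c-1* and 0.760 to 1.05% in wild type, and the part of poly(A) selection in these values was not tested. The 5 plastid genes past the adjusted p became 0 without *prp40c-1* replicate 2 and 1 without *prp40c-1* replicate 3. They became 3 when replicate 1 or replicate 3 of wild type was left out, and 0 with DESeq2.

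**Figure D5:**
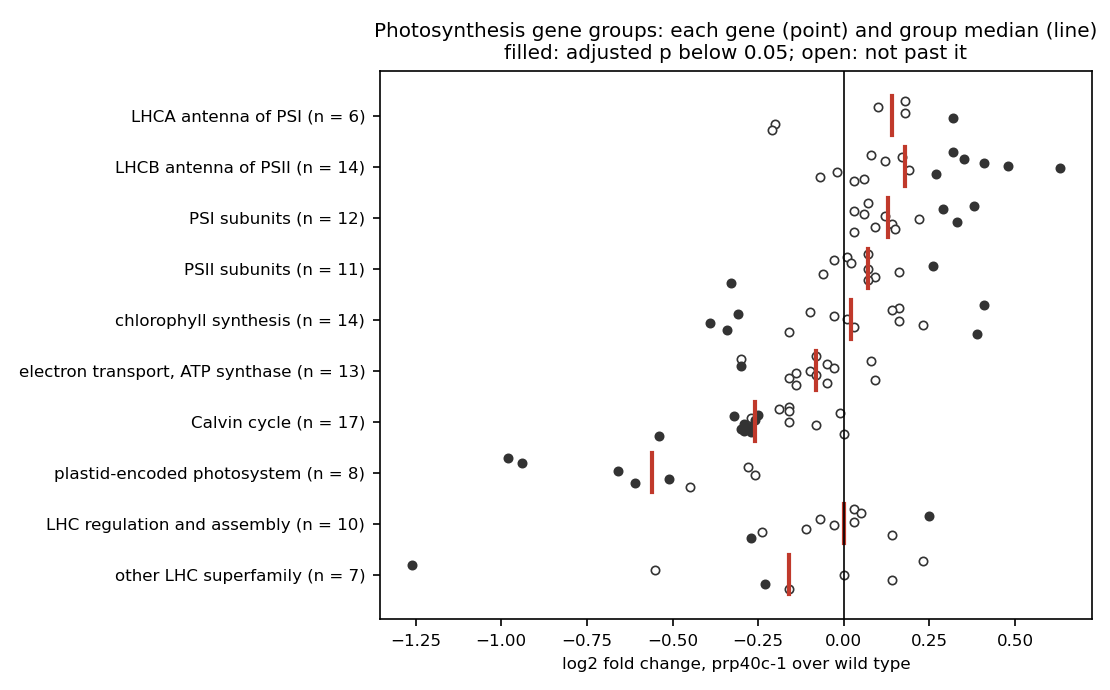
Log2 fold change (x axis, *prp40c-1* over wild type) of each gene in the 4 classes of members and in 6 lists of related genes, with the median of each group as a line; filled points have an adjusted p below 0.05. The medians of the member classes lie between 0.07 and 0.18, that of the Calvin cycle at -0.26 and that of the plastid-encoded photosystem genes at -0.56.

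Because *PRP40C* encodes a splicing factor, the introns of the members were examined. For each intron the deposited counts give reads that cross its 2 boundaries and reads that splice it out. The retained share divides the boundary reads by the sum of these and 2 times the spliced reads. Of 64 member introns with all 3 counts, 60 introns in 31 members could be tested. For 1 of the 60, in *PSBQ1*, the spliced reads were those of a minor acceptor only, as described below. None was called at an adjusted p below 0.15 and an absolute log2 change above 0.58 by edgeR's quasi-likelihood test, nor was any of the 13735 introns tested (0%). The study set these thresholds on another measure, the read density of introns, and with edgeR's exact test. It did report introns with altered splicing, so the 0% holds for the measure used here. DESeq2 called 120 of all introns and 0 of the members'. At an unadjusted p below 0.05 there were 6 of the 60 member introns, a share close to that over all introns. Of all introns 1455 (10.6%) passed, 461 of them (3.36%) with less retention and 994 (7.24%) with more. The 6 member introns all had less retention in *prp40c-1*. They lay in *LHCA4*, *LHCB5*, *PSBS* and *PSAN*, with more than 1 in *LHCB5* and in *PSBS*, so they are not 6 separate genes. These 6 became 1 without *prp40c-1* replicate 3 and 3 without *prp40c-1* replicate 1 or wild-type replicate 1. Without wild-type replicate 2 there were again 6, of which 5 had less retention. DESeq2 gave 1 and column totals of each read type gave 14. The median log2 change was -0.18 over member introns and 0.19 over all introns. Member introns were spliced almost completely: the median retained share over the 6 libraries together was 0.223%, against 2.81% over all tested introns, and 57 of the 60 were below 1%.

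The lowest p was that of an intron of 79 bases in *PSBS* (chr1:16872158-16872236). Its boundary reads numbered 3, 5 and 2 in *prp40c-1*, against 17, 24 and 38 in wild type. Spliced reads numbered 5274, 4763 and 3962 in *prp40c-1*, against 6736, 6665 and 7483 in wild type. The retained share was 0.0354 ± 0.0149% in *prp40c-1* and 0.186 ± 0.0639% in wild type (SD, n = 3), without overlap. The log2 change was -2.32 (standard error 0.497, unadjusted p = 6.3e-04, adjusted p = 0.319). It was called when library sizes were the column totals of each read type (adjusted p = 0.128) and with a minimum mean of 10 reads (adjusted p = 0.0766).
The splice sites of this intron are shown from TAIR10.1, on the plus strand, with the GT and AG that bound the intron in capitals.
*PSBS* donor: cggtttcgctGTaagtcc
*PSBS* acceptor: agctgtgtttctatgcatAGgcatcgttgc

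A longer intron of *PSBS*, of 466 bases (chr1:16872481-16872946) and annotated as a retained intron, had 0.0749 ± 0.0372% retained in *prp40c-1* and 0.175 ± 0.0453% in wild type (SD, n = 3; log2 change -1.22, adjusted p = 0.402). An intron of *PSAN*, a lumenal subunit of PSI, had 0.0637 ± 0.0329% in *prp40c-1* and 0.140 ± 0.0202% in wild type (SD, n = 3; -1.16, adjusted p = 0.426). Neither was called under any alternative run.

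*PSBQ1* has an annotated choice between acceptors 3 bases apart, shown with the AG of each site in capitals.
*PSBQ1* (chr4:11335074-11335102, plus strand): tttgttttgtttggtgAGcAGctgggaca
Reads spliced to the upstream acceptor numbered 54, 239 and 222 in *prp40c-1*, against 40, 0 and 222 in wild type. Those spliced to the downstream acceptor numbered 9985, 9934 and 9283 in *prp40c-1*, against 9851, 11923 and 13061 in wild type. The upstream acceptor thus took 0.538, 2.35 and 2.34% of the reads in *prp40c-1* and 0.404, 0 and 1.67% in wild type, with wide and overlapping ranges in both genotypes. Among the tested introns, the one ending at this acceptor (chr4:11334723-11335091) had only the upstream reads as spliced reads. Its retained share of 22.1 ± 16.2% in *prp40c-1* and 53.3 ± 42.3% in wild type (SD, n = 3) and its log2 change of -2.03 leave out the downstream reads. They do not measure how fully the intron was spliced.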

How the data were processed

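Poly(A) RNA libraries of 3 *prp40c-1* and 3 wild-type samples were sequenced as read pairs. By the submitters' processing notes, the authors mapped reads to TAIR10 with TopHat2 2.1.1 and used SAMtools 1.3. They deposited unnormalized read counts per gene and per junction, made with custom R scripts. The sources used here do not state how strand and reads with several matches were handled. The authors also deposited a pooled retained fraction per genotype, which was not used. CPM were computed with TMM library sizes, and levels per length (RPKM) with the deposited effective gene length. Genes averaging 10 or more counts in either genotype entered edgeR 4.0.16 (R 4.3.3; glmQLFit and glmQLFTest, genotype only), with Benjamini-Hochberg adjustment over all genes tested. Introns averaging 5 or more spliced reads in both genotypes and 5 or more boundary reads in either were tested for the interaction of read type and genotype with 1 effect per library. DESeq2 1.42.0 was an alternative. Genes given by library were all members with an adjusted p below 0.05, the 2 with the highest RPKM and the largest change in each class, gene copies of 1 subunit and *PRP40C*; list genes were named where called or most changed, others after their values were seen. Introns were named by the 3 lowest p. The members and lists were chosen with earlier results of these data known. Sequences came from RefSeq's TAIR10.1, whose bases at all 64 member introns began with GT and ended with AG; its gene starts and ends equalled the deposited ones for 3 of 43 members, and RefSeq's were used for promoters only. Replicate numbers were not used to pair the libraries in the main fits, and the sources used here do not say whether same-numbered libraries were handled together.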

Additional observations from a re-analysis of the deposited data

How the results depend on the processing

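Each of 602 repeated log2 fold changes of the members (43 genes, 14 alternatives) was set against the reported value. In 558 the direction and the side of the threshold were kept, 18 lost the threshold, 11 gained it, and 15 changed sign. The changes of sign were in 9 genes with values near 0, each with 1 library left out: over these 6 fits the log2 fold change ran from -0.10 to 0.02 for *LHCB4.1*, -0.03 to 0.21 for *LHCB5*, -0.06 to 0.12 for *LHCB6*, -0.07 to 0.17 for *PSAE2*, -0.02 to 0.11 for *PSAF*, -0.05 to 0.14 for *PSAO*, -0.03 to 0.10 for *PSBO2*, -0.11 to 0.06 for *PSBP1* and -0.03 to 0.26 for *PSBY*. With no threshold on the fold change, 2485 genes and 12 members were called. With a library left out, between 567 and 919 genes and between 0 and 1 members were called, and between 6 and 19 members had an adjusted p below 0.05. Introns called across the table numbered 9 with column totals of each read type, 120 with DESeq2 and 137 with a minimum mean of 10 reads, and member introns 1 with column totals and 1 with the minimum of 10. The cause was not tested. Copy shares changed sign with a library left out for 4 of 16 shares, all overlapping between genotypes: over these fits the difference ran from -2.31 to 0.345 for *LHCB1.3*, -1.23 to 0.320 for *LHCB1.5*, -0.110 to 0.488 for *LHCB2.2* and -0.0146 to 1.03 for *PSBO1*, in percentage points. The log2 ratios of 3 sums, all light-harvesting genes, PSI and PSII, moved by less than the spread between libraries under each of the 10 alternatives run for them; those of *LHCA* and *LHCB* alone were not repeated. A replicate block from the numbers in the labels called 819 genes and left 12 members with an adjusted p below 0.05, and 0 introns. Over all genes tested, the deviations of same-numbered libraries had correlations of 0.00772, 0.00636 and 0.0347, whereas the members had the same order of replicates in both genotypes. Alternatives for the lists, the copy shares and TMM without the 43 members were chosen after seeing the data.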
